A study of Mus musculus with 36 samples.

Results

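The cytosolic ribosomal protein genes are the genes for the proteins of the ribosome that translates messenger RNA in the cytoplasm. They were taken by symbol from the deposited gene tables (Rpl or Rps names with a number, plus Rpsa and the P stalk genes Rplp0, Rplp1 and Rplp2, without the Rps6k kinases and the names marked as pseudogenes), which gave 88 of the 46078 genes of the count table. Of these, 46 encode proteins of the large (60S) subunit, 31 proteins of the small (40S) subunit, 7 are paralogues with a name of their own and 4 are further copies of Rps3a and Rps12. A filter on low counts left 84 members for testing, and Rpl10l, Rpl39l, Rps12l1 and Rps12l2 did not pass it.

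The study instilled graphene oxide, flat carbon sheets that carry oxygen groups, into mouse lungs and compared sheets of different lateral size. All mice were wild type C57BL/6 females that received 1 intranasal instillation. The materials US, S and L (named ultrasmall, small and large by the study) were given at 50 μg per mouse, and D marks the carrier, 5% dextrose, with 0 μg of graphene oxide. Lungs were taken at day 1, 7 or 28, at ages of 9, 10 and 13 weeks, and each of the 12 groups of material and day had 3 libraries (n = 3 throughout, 36 in all). Groups had 4 to 5 animals, and the labels do not link libraries with animals, so the tests see only the spread among the 3 libraries of a group. RNA came from pieces of every lobe after the large airways had been cut away. The depth was 16154696 to 23808264 counts in 35 libraries, and S day 7 replicate 2 was deeper, at 80566751 counts. Markers of lung epithelium were present: the surfactant gene Sftpc averaged 18560 CPM (counts scaled to a common library total) and the club cell gene Scgb1a1 29240 CPM, and all 6 markers had counts in every library.

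A ribosome needs 1 copy of nearly every ribosomal protein, and their genes are transcribed at high levels in all tissues. Many of their mRNAs begin with a 5′ terminal oligopyrimidine tract (TOP), a C followed by a run of C or T, through which the growth-regulating kinase complex mTORC1 and the RNA-binding protein LARP1 control how much of the mRNA is translated. That control acts mainly on translation, which RNA-seq of tissue does not measure. The lung is a mixture of many cell types, so in bulk samples fewer cells of a type and less RNA per cell cannot be told apart.

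The start regions of members that the results turn on differed in whether such a tract lay within 10 bases of the annotated start. RefSeq's promoter table (GRCm38.p6) held 75 start sites for 63 of the 88 members. The motif searched was CNNNN on the transcribed strand, with each N either C or T. It stood exactly at the annotated start in 13 of the 75 member entries (17.3%), against 823 of all 32851 entries (2.51%). Anywhere within 10 bases of the start it was found in 41 of 75 member entries (54.7%), against 30.7% of all entries. The windows below run from 20 bases before the start to 20 bases from it, 5′ to 3′ on the gene's strand. Capitals mark the motif occurrence nearest to the start, where any lay within 10 bases of it. For Rpl27a an equally near occurrence begins just before the start, and the one just after it is marked. Rps21 had a pair of annotated starts, of which the upstream one is shown. Rps27 had the highest level of all members, Rps21 and Rplp2 were among the members that differed most between libraries, Rpl27a and Rps16 were called in the carrier mice over time, and Rpl7a and Rpl4 were among the steadiest.
Rps27 (chr3:90213629-90213668, minus strand): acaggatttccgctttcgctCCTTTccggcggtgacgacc
Rps21 (chr2:180257359-180257398, plus strand): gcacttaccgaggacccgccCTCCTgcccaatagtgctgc
Rplp2 (chr7:141447631-141447670, plus strand): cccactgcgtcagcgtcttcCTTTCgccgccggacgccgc
Rpl27a (chr7:109519175-109519214, plus strand): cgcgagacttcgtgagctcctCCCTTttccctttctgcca
Rpl7a (chr2:26910787-26910826, plus strand): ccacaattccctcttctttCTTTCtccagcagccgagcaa
Rps16 (chr7:28350669-28350708, plus strand): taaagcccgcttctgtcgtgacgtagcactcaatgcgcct
Rpl4 (chr9:64173367-64173406, plus strand): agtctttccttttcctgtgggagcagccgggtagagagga
Of the 3 steadiest members Rpl7a had the motif next to the start, and Rpl4 and Rpl7l1 had no match within 10 bases of it. Of the 3 most variable members the table held Rplp2 alone. Rps16 had no match within 10 bases either. The windows shown for Rps16 and Rpl4 hold the motif farther upstream, outside the 10 bases searched.

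Per transcript length, the 77 members of the 2 subunits had high levels that differed several-fold between genes. In TPM, the authors' length-scaled abundance, their means over 36 libraries had a median of 840.0, and 80% of them lay between 323 and 1518. The median was 1041 TPM for the small subunit and 714 TPM for the large subunit. Rps27 averaged 2599 ± 528 TPM (SD over 36 libraries), Rps4x 1836 ± 196, Rps3a1 1778 ± 232, Rps15 1755 ± 436 and Rps14 1718 ± 370, so the 5 highest members all belong to the small subunit. Rps4x is the X-linked form of its protein. The lowest genes of the 2 subunits were Rps20 at 158 ± 30.3 TPM and Rpl22 at 167 ± 26.3 TPM, which were named after their values were seen.

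The paralogues spanned the range between these levels and none. Rps27l, a target of p53, averaged 214 ± 30.7 TPM and Rpl22l1, which can take the place of Rpl22, 188 ± 37.0 TPM. Rpl7l1 averaged 59.2 ± 5.495 TPM and Rps4l, a paralogue of Rps4x whose annotated span of 943 bases equals its transcript length, 27.1 ± 10.4 TPM. Rpl3l, the form of Rpl3 known from striated muscle, averaged 0.403 ± 0.168 TPM. Rpl39l, known from the testis, averaged 0.391 ± 0.311 TPM, with at most 13 counts in a library. Rpl10l, another testis form, had 0 counts in all 36 libraries. Levels of Rpl3l, Rpl39l and Rpl10l were thus at or near the bottom of the range in every group.

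Counts and TPM gave the same picture for most members but not for all. The count per kilobase divided by TPM was within a factor of 2 of the subunit genes' median in 75 of 77 genes. Rpl24, a protein of the large subunit, averaged 0.967 CPM in the count table and 723 TPM in the authors' abundance tables, a ratio of 0.00385 relative to that median. Rpl24 (chromosome 16, 55966275 to 55971435, plus strand) lies almost wholly within the span of Gm28037 (55966343 to 55980721) on the same strand, which had 0 CPM. The part of this overlap in the low count was not tested. Rpl24 TPM ran from 513 to 938 over the 36 libraries, so its counts are not used as a level here. Rpl41 stood at the other end with a ratio of 2.27, followed by Rpl10 (1.88), Rpl36a (1.53) and Rps18 (1.47).

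The 4 further copies were mostly low in counts. Rps3a2 averaged 4.87 CPM against 183 TPM (ratio 0.0653), Rps12l1 0.0330 CPM against 12.3 TPM (0.0131) and Rps12l2 0.0165 CPM against 0.981 TPM (0.0858). Rps3a3 averaged 0.641 CPM against 3.05 TPM (0.516). Reads of near-identical copies cannot be placed with certainty, so values of these copies are uncertain. The 260 names marked as pseudogenes held 0.00749% to 0.0200% of the counts and 0.174% to 0.332% of the TPM of a library.

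**Figure D1:**
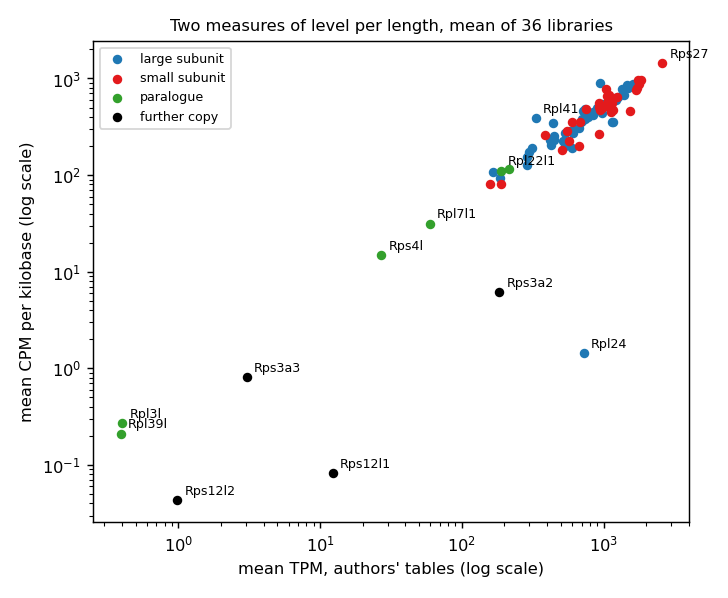
Mean level per length of ribosomal protein genes over 36 libraries, from counts (CPM per kilobase, vertical log axis) and from the authors' TPM (horizontal log axis). Each point is a gene, coloured by class, and Rpl24 lies far below the diagonal band at 723 TPM and 1.43 CPM per kilobase.

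The members together took 1.91% to 4.66% of a library's counts. Counting error was small, since the widest 95% Wilson interval reached 0.00965 percentage points to either side. At day 1 the share was 2.56%, 3.05% and 2.33% in US libraries, 2.56%, 2.18% and 2.08% in S libraries, 2.41%, 1.91% and 3.61% in L libraries, and 2.92%, 2.88% and 2.89% in D libraries. All 3 S libraries lay below all 3 D libraries, whereas US and L libraries overlapped D. At day 7 it was 3.06%, 3.72% and 2.77% in US, 3.29%, 3.799% and 3.75% in S, 4.66%, 3.92% and 3.09% in L, and 4.38%, 4.17% and 3.22% in D. Every material overlapped D at that day. At day 28 it was 3.12%, 2.77% and 2.84% in US, 3.25%, 3.40% and 3.14% in S, 3.27%, 3.61% and 3.43% in L, and 2.88%, 2.74% and 2.63% in D. The S and L libraries all lay above the D libraries, and US overlapped D. In TPM the members took 4.69% to 9.20% of a library.

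**Figure D2:**
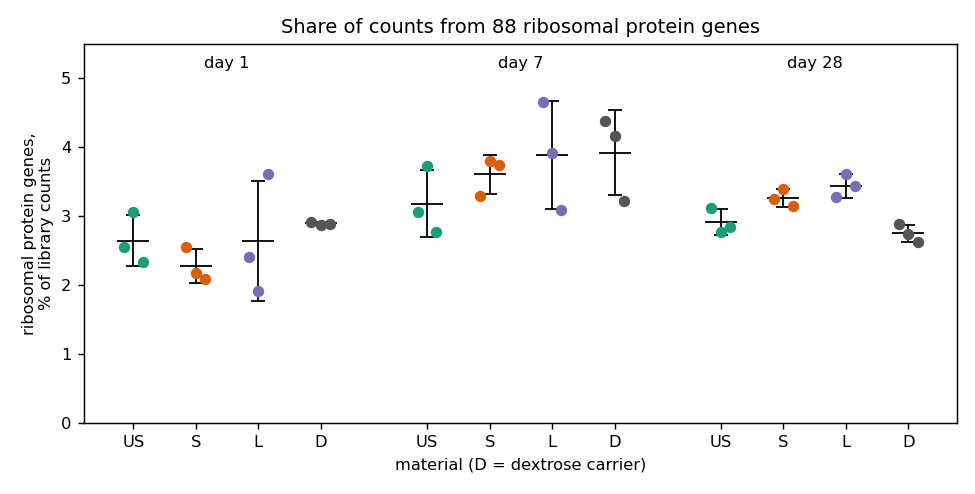
Percentage of each library's counts from the 88 ribosomal protein genes, by day and material, with points for libraries and bars for the mean ± SD of 3. D libraries lay between 3.22% and 4.38% at day 7, above the 2.63% to 2.92% of D libraries at days 1 and 28.

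Members moved up and down together from library to library. Over the 76 subunit genes other than Rpl24, the median Pearson correlation between 2 genes' log2 CPM across the 36 libraries was 0.92, and 67 of the 76 had a correlation above 0.9 with the mean of the others. These points share libraries and total counts, so the values are descriptions. The lowest correlation with the rest was 0.69, for Rpl4, a protein that lines the exit tunnel. Among paralogues, Rpl22l1 (0.87), Rps27l (0.86) and Rps4l (0.77) followed the subunit genes, Rpl3l less so (0.36), and Rpl7l1 ran slightly against them (-0.23).

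The size of that common movement differed between members. The SD of log2 CPM over 36 libraries had a median of 0.316 in the 76 genes, against 0.194 in the 2238 tested genes with a mean of at least 100 CPM. It was largest, among tested members, for Rpl36 (0.762), a large-subunit protein, and for Rplp1 (0.699) and Rplp2 (0.687). Rplp1 and Rplp2 form dimers on Rplp0 and make up the P stalk, which recruits the translation factors that hydrolyse GTP. Rplp0 itself had an SD of 0.277, so the mRNA of the stalk's anchor varied less than the mRNAs of the proteins bound to it. Protein levels were not measured. The smallest SDs belonged to Rpl7l1 (0.0758), Rpl4 (0.154) and Rpl7a (0.190). Over the 76 genes, the SD correlated with transcript length at r = -0.41 and with GC content at r = 0.43, again as a description.

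**Figure D3:**
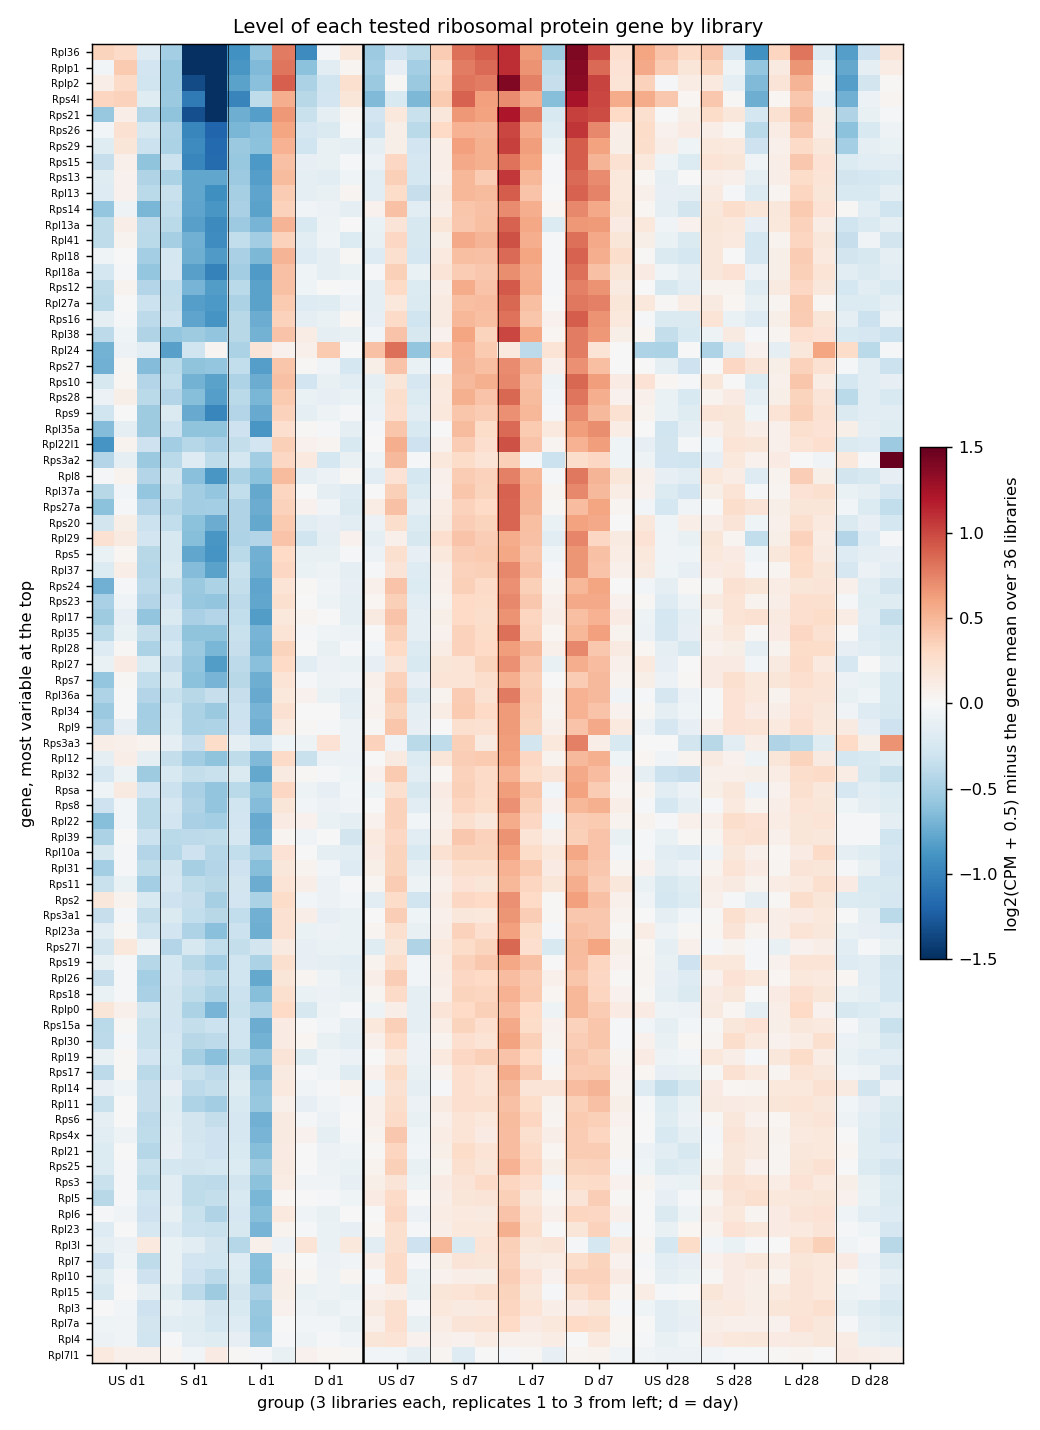
Level of the 84 tested members (rows, most variable at the top) in 36 libraries (columns, by day and then US, S, L and D), as log2(CPM + 0.5) minus the gene's mean. The columns of D day 7 replicates 1 and 2 and L day 7 replicate 1 are high over nearly all rows, and those of S day 1 replicates 2 and 3 and L day 1 replicate 2 are low.

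In carrier mice, ribosomal protein mRNAs were lower at day 28 than at day 7. EdgeR's quasi-likelihood test with Benjamini-Hochberg adjustment called 44 of 84 members lower and 0 higher, where 6.73% of all 16903 tested genes were called lower and 15.6% were called in either direction. The median log2 fold change of the members was -0.53, against -0.01 for all genes. The called members were 22 of 46 genes of the large subunit (median -0.51), 20 of 31 of the small subunit (median -0.58), 2 of 5 tested paralogues and 0 of 2 tested further copies. In 67 members all 3 day 28 libraries lay below all 3 day 7 libraries in CPM, as in 18.3% of all tested genes.

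The called members of smallest p were proteins of both subunits. Rps16, of the small subunit, had 191, 170 and 200.4 CPM at day 28, against 400, 339 and 237 CPM at day 7. The groups did not overlap, and the log2 fold change was -0.80 ± 0.22 (SE, 1.74-fold lower, edgeR adjusted p = 0.0276). Rps2 had 327, 324 and 318 CPM at day 28, against 581, 512 and 399 CPM at day 7 (-0.62 ± 0.17, adjusted p = 0.0277). The day 28 libraries of Rps2 were within 10 CPM of each other while those of day 7 spread widely. Rpl27a, of the large subunit, had 196, 195 and 202 CPM at day 28, against 388, 380 and 255 CPM at day 7 (-0.79 ± 0.22, adjusted p = 0.0277). Rpl13, of the large subunit, had 173, 173 and 184 CPM at day 28, against 374, 339 and 228 CPM at day 7 (-0.83 ± 0.24, adjusted p = 0.0284). In all 4 genes the third day 7 library was the lowest of that day and still above every day 28 library.

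The P stalk and the paralogues covered the range of responses. Rplp2 fell 2.39-fold to 74.4, 110 and 134.2 CPM at day 28, against 339, 267 and 152 CPM at day 7 (-1.26 ± 0.40, adjusted p = 0.0357). Rplp0 fell 1.46-fold (-0.54 ± 0.17, adjusted p = 0.0324), and Rplp1 had a log2 fold change of -1.11 ± 0.39 that missed the threshold (adjusted p = 0.052). Rpl36 had -1.22 ± 0.44 (adjusted p = 0.0531). Rps4l fell 2.32-fold to 7.496, 11.9 and 13.1 CPM at day 28, against 30.5, 25.9 and 19.0 CPM at day 7 (adjusted p = 0.0293), and Rpl22l1 fell 1.64-fold (adjusted p = 0.0377). Rps27l (-0.51 ± 0.18, adjusted p = 0.0539), Rpl3l (-0.33 ± 0.48) and Rpl7l1 (0.09 ± 0.07) were not called. Rpl4 had 1004, 858 and 835 CPM at day 28, against 925, 1025 and 937 CPM at day 7, with overlapping groups (-0.10 ± 0.10, adjusted p = 0.498).

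This result depended on single libraries and on whether trends in GC content and transcript length were removed. Leaving out any D day 28 library, or D day 7 replicate 1 or 2, left 0 members called, and leaving out D day 7 replicate 3 gave 76. With each library's trends of this kind removed, the calls of lower level among all genes fell from 1137 of 16903 to 231 of 16835. Among the members, 0 were then called lower and 1 higher, at a median of -0.18. That 1 gene was Rps3a2, whose counts at day 28 were 5.25, 4.62 and 14.9 CPM, against 5.67, 5.92 and 4.45 CPM at day 7, so that replicate 3 alone was high. Limma on log2(TPM + 1) called 16 members lower, 14 of them among the 44, where it called 355 of all 15625 genes lower. DESeq2 called 70 members, including all 44. For DESeq2 and the leave-outs, calls over all genes were not counted.

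Markers of other tissues and of time of day moved in the same comparison, and their part in the result was not tested. Summed fat cell markers were at 15.02 to 20.1 CPM in D lungs at day 28, against 27.5 to 51.1 CPM in D lungs at day 7. Over 36 libraries Cidec averaged 13.3 CPM, more than any other gene of this sum. Of 6 tested fat markers 1 fell (Retn), and Lep, the defining hormone gene, was at 0 in 25 of 36 libraries. Summed skeletal muscle markers were at 1.58 to 1.82 CPM at day 28, against 2.85 to 5.31 CPM at day 7, with 0 of 2 called. Summed cardiac muscle markers were at 56.5 to 122.2 CPM at day 28, against 145 to 193 CPM at day 7, with 2 of 6 lower (Tnni3 and Myl4) and Nppa at 0 in 26 of 36 libraries. Of the other lists, 1 of 5 endothelial and 1 of 7 B and plasma cell markers fell, 1 of 5 red blood cell markers rose, and 0 of 6 lung epithelial markers were called. Of 15 clock genes, which follow the time of day, 4 rose and 4 fell. Nr1d1, a core clock repressor, averaged 14.6 ± 2.31 CPM in D lungs at day 28 and 107.1 ± 38.4 CPM in D lungs at day 7 (SD, log2 fold change -2.88 ± 0.39).

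For day 7 against day 1 in carrier mice, fold changes were mostly positive but no member was called. EdgeR called 0 of 84 members, as it called 0% of all genes, and DESeq2 and limma also called 0 members. An unadjusted p under 0.05 was found in 4085 of all 16903 genes and in 71 of the 84 members. The median log2 fold change was 0.46, and 60 members had all 3 day 7 libraries above the 3 day 1 libraries, as had 13.3% of all genes. Rpl27a averaged 341 ± 74.3 CPM at day 7 and 202 ± 8.54 CPM at day 1 (SD, log2 fold change 0.77 ± 0.22, adjusted p = 0.137), and Rps10, of the small subunit, averaged 283 ± 70.7 CPM at day 7 and 167 ± 10.3 CPM at day 1 (0.78 ± 0.22, adjusted p = 0.137). Without D day 7 replicate 3, 49 members were called higher, and calls over all genes were not counted for that fit. With GC and length trends removed the median was 0.15 and 0 were called. Summed fat cell markers were at 27.5 to 51.1 CPM at day 7, against 14.2 to 16.9 CPM at day 1 (median log2 fold change 3.20, 5 of 6 at an unadjusted p under 0.05). Summed red blood cell markers were at 1706 to 2590 CPM at day 7, against 1099 to 1341 CPM at day 1, and summed clock genes were at 612 to 737 CPM at day 7, against 820.2 to 927 CPM at day 1. Lung epithelial sums were also higher at day 7 without overlap. None of the marker or clock genes was called, and their part in these values was not tested.

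Day 28 against day 1 in carrier mice gave no call among the members. EdgeR called 0 of 84, where 0.0769% of all genes were called, and DESeq2 and limma called 0 members. In 912 of all 16903 genes, and in 1 member, the unadjusted p was under 0.05. The median log2 fold change was -0.06. That 1 gene was Rps3a2 (0.92 ± 0.30), for which day 28 replicate 3 stood alone as described, and without that library 0 members had an unadjusted p under 0.05.

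**Figure D4:**
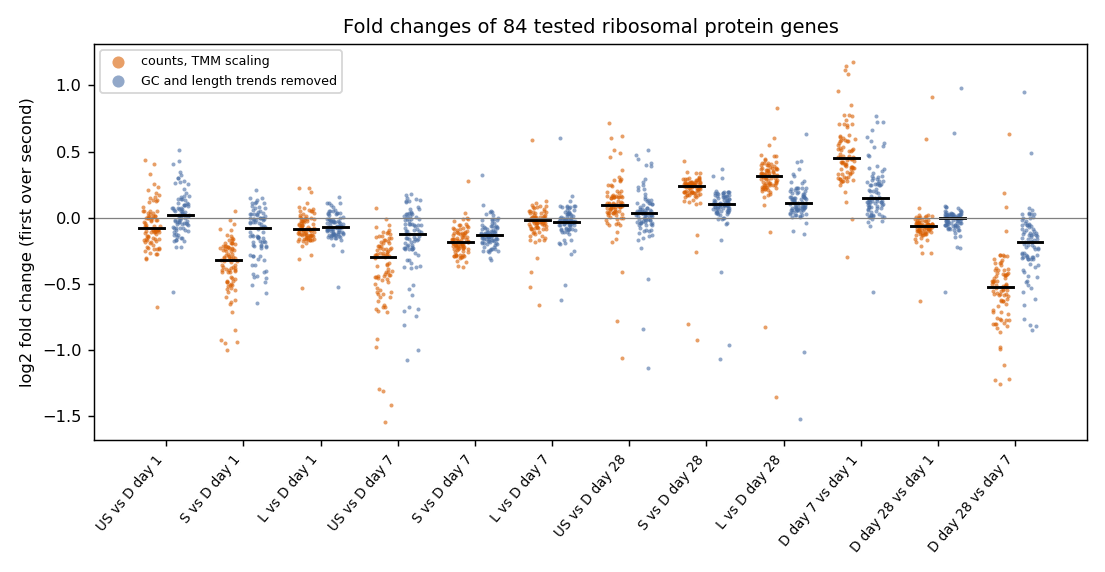
Log2 fold changes of the 84 tested members (points) and their median (black bar) in 12 comparisons, from the count fit (orange) and with GC and length trends removed (blue). Medians moved from -0.53 to -0.18 for D day 28 against day 7 and from -0.30 to -0.12 for US against D at day 7 when the trends were removed.

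Against the carrier at day 7, 1 member was lower in US lungs and the fitted values of nearly all others were below 0. Rps4l had 7.88, 10.8 and 7.77 CPM in US lungs, against 30.5, 25.9 and 19.0 CPM in D lungs. The groups did not overlap, and the gene was 2.91-fold lower (log2 fold change -1.54 ± 0.36, edgeR adjusted p = 0.0317). It was the only 1 of 84 members called by edgeR. That is close to the share of all genes called lower, 1.18%, with 2.09% called in either direction. With Rps4l included, 34 of 84 members had an unadjusted p under 0.05, as had 4352 of all 16903 genes. The members' median log2 fold change was -0.30, and 83 of 84 values were negative. In 11 members all US libraries lay below all D libraries, as in 8.87% of all genes.

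Rpl36 and both partners of Rplp0 in the P stalk had large differences at day 7 that missed the threshold. Rpl36 had 39.98, 47.2 and 44.3 CPM in US lungs, against 156, 117.4 and 70.2 CPM in D lungs (-1.41 ± 0.44, adjusted p = 0.0668). Rplp2 had 89.5, 133.6 and 90.1 CPM in US lungs, against 339, 267 and 152 CPM in D lungs (-1.30 ± 0.40, adjusted p = 0.063), and Rplp1 had 254, 331 and 253 CPM in US lungs, against 933, 653 and 421 CPM in D lungs (-1.29 ± 0.40, adjusted p = 0.0649). None of the 3 overlapped between the groups and none passed the threshold. Rplp0 had -0.41 ± 0.17 (adjusted p = 0.127) and Rpl4 0.08 ± 0.10 (adjusted p = 0.661). DESeq2 called 10 members lower, limma 1, and keeping genes of low counts in the fit gave 5. Leaving out US replicate 2 gave 19 calls and leaving out D replicate 3 gave 21, while leaving out US replicate 1 or 3, or D replicate 1 or 2, gave 0. Limma called 40 of all 15625 genes lower. In the other of these fits calls were counted for the members only, so no share of all genes stands beside them.

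Clock and fat cell genes moved in this comparison too, cardiac muscle sums did not overlap, and their part in the result was not tested. Of 15 clock genes 9 rose and 2 fell. Summed fat cell markers were at 14.6 to 21.1 CPM in US lungs, against 27.5 to 51.1 CPM in D lungs, with 1 of 6 lower (Adig), and 2 of 5 endothelial markers fell. Summed cardiac muscle markers were at 88.4 to 142.2 CPM in US lungs, against 145 to 193 CPM in D lungs, with 0 of 6 called and 6 of 6 fold changes negative (median -0.74). Of 6 lung epithelial markers 0 were called.

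No member was called for S or L against D at day 7. EdgeR called 0 of 84 members for S (0.45% of all genes) and 0 for L (0.154% of all genes). DESeq2 and limma called 0 members in both. An unadjusted p under 0.05 was found in 1577 genes for S and 824 for L, of which 0 were members. The medians were -0.18 for S and -0.02 for L. The L median turned to 0.03 in limma on TPM, to 0.07 without D replicate 1, to 0.04 without D replicate 2 and to 0.15 without L replicate 3, and was -0.21 without L replicate 1. The S median ran from -0.33 to -0.07 when 1 library was left out. Rps4l averaged 15.9 ± 6.99 CPM in L lungs and 25.1 ± 5.81 CPM in D lungs (SD), with overlapping groups.

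At day 1, the share of member counts was lowest on average in S lungs, and no member was called. EdgeR called 0 of 84 members (0.0473% of all genes), and DESeq2 and limma called 0 members. An unadjusted p under 0.05 was found in 3555 of all 16903 genes and in 24 of the 84 members. The median log2 fold change was -0.32, and in 75 members all 3 S libraries lay below all 3 D libraries, as in 19.8% of all genes. Rps21, a small-subunit protein, had 114.9, 69.9 and 58.3 CPM in S lungs, against 138, 159 and 179 CPM in D lungs (-0.92 ± 0.33, adjusted p = 0.165). Rps15 had 367, 233 and 206 CPM in S lungs, against 420.5, 427 and 449 CPM in D lungs (-0.64 ± 0.26, adjusted p = 0.188). Both genes were below D in every S library, and S replicate 1 was nearest to D. The 24 members at an unadjusted p under 0.05 were 1 without S replicate 2 or 3, 3 without D replicate 3 and 38 without S replicate 1. The median was -0.08 with GC and length trends removed, and 25 of 84 values were positive.

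Marker sums of several cell types were also below D in S lungs at day 1, though no marker outside the clock list was called, and their part in the result was not tested. Summed B and plasma cell markers were at 112.3 to 211.7 CPM in S lungs, against 215.9 to 279.5 CPM in D lungs, with 7 of 7 fold changes negative. Summed T and NK cell markers were at 71.6 to 128.8 CPM in S lungs, against 133.7 to 153.7 CPM in D lungs, with 10 of 10 negative. Lung epithelial markers had 6 of 6 negative fold changes and sums that did not overlap between the groups (median -0.30). The 6 cardiac muscle markers were all negative too (median -1.31), 4 of them at an unadjusted p under 0.05, and summed skeletal muscle markers were at 1.12 to 1.99 CPM in S lungs, against 2.35 to 3.37 CPM in D lungs. Of 15 clock genes 3 rose and 1 fell.

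No member was called for US or L against D at day 1. EdgeR called 0 of 84 members for US (0.0887% of all genes) and 0 for L (0.0237% of all genes). DESeq2 and limma called 0 members in both. An unadjusted p under 0.05 was found in 2724 genes for US and 835 for L, of which 0 were members. The medians were -0.08 for US and -0.09 for L, and the US median turned to 0.02 with GC and length trends removed and to 0.01 without US replicate 3. The L median turned to 0.10 without L replicate 2 and was -0.41 without L replicate 3, where 59 members had an unadjusted p under 0.05. The 3 L libraries spread over the whole range of that day: Rplp1 had 197, 228 and 632 CPM in L lungs, against 236, 323 and 373 CPM in D lungs.

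At day 28 the median log2 fold change against D was 0.10 for US, 0.24 for S and 0.32 for L. All 3 comparisons share the same D libraries. With GC and length trends removed the medians were 0.03, 0.10 and 0.11. EdgeR called 0 of 84 members for US (0.0237% of all genes), 0 for S (0.237%) and 0 for L (2.15%). An unadjusted p under 0.05 was found in 1018, 1668 and 2829 of all 16903 genes, and in 2, 3 and 11 of the 84 members. DESeq2 called 0, 0 and 1, and limma 0 in each. In 50 members all S libraries lay above all D libraries, as in 12% of all genes, and in 73 members all L libraries did, as in 16.5% of all genes.

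Rpl3, a protein close to the peptidyl transferase centre, was the member of smallest p for L and the 1 that DESeq2 called. It had 748, 766 and 781 CPM in L lungs, against 614, 582 and 562 CPM in D lungs (0.36 ± 0.11, 1.28-fold higher, edgeR adjusted p = 0.0984). In S lungs it had 726, 734 and 710 CPM, against the same D values (0.30 ± 0.11, adjusted p = 0.354). Rpl3 did not overlap D in either material, and it was among the members that varied least between libraries. The further copies had negative fold changes: Rps3a3 averaged 0.380 ± 0.0908 CPM in L lungs and 0.948 ± 0.307 CPM in D lungs, and Rps3a2 averaged 4.76 ± 0.322 CPM in L lungs and 8.26 ± 5.77 CPM in D lungs (SD). With GC and length trends removed these 2 copies were called lower in L. D replicate 3 was the highest of its group for both, at 1.28 and 14.9 CPM.

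Markers of other cell types moved in the same comparisons at day 28, and their part in these values was not tested. For L, 3 of 8 macrophage markers rose: Gpnmb (log2 fold change 4.70 ± 0.50), Trem2 (3.21 ± 0.36) and Cd68 (1.49 ± 0.21). Of 7 B and plasma cell markers 1 rose, Jchain, which averaged 59.8 ± 29.5 CPM in L lungs and 19.5 ± 3.65 CPM in D lungs (SD), and their sum was 315 to 399.9 CPM in L lungs, against 178.9 to 268.5 CPM in D lungs. Summed fat cell markers were at 12.56 to 13.86 CPM in L lungs, against 15.02 to 20.1 CPM in D lungs. For S, 0 of 8 macrophage markers were called, and their sum was 9438 to 10790 CPM in S lungs, against 7963 to 8440 CPM in D lungs. The largest part of that sum is Lyz2, which averaged 7416 CPM over 36 libraries. Summed cardiac muscle markers were at 42.3 to 50.1 CPM in S lungs, against 56.5 to 122.2 CPM in D lungs. Of 15 clock genes 4 were called for S and 11 for L.

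Between sizes, no member was called by edgeR in any of 9 comparisons. At day 1, S against US had 0 of 84 called (0.0177% of all genes, 23 at an unadjusted p under 0.05), L against US 0 (0% of all genes, 1) and L against S 0 (0% of all genes, 14). At day 7, S against US had 0 called (0.142% of all genes, 5), L against US 0 (0.00592%, 29) and L against S 0 (0.154%, 0). At day 28, S against US had 0 called (0% of all genes, 0), L against US 0 (0.515%, 3) and L against S 0 (0.0651%, 0). In the same order, 2315, 1060 and 1759 of all 16903 genes had an unadjusted p under 0.05 at day 1. The numbers were 2223, 2534 and 1131 at day 7, and 920, 1911 and 635 at day 28. DESeq2 called 1 member, Rps4l in S against US at day 1, and limma called 0 in all 9. Rps4l had 8.46, 5.85 and 4.09 CPM in S lungs, against 16.01, 16.3 and 11.1 CPM in US lungs (-1.26 ± 0.37, edgeR adjusted p = 0.153). Rplp2 averaged 225 ± 121.6 CPM in L lungs and 104.4 ± 25.3 CPM in US lungs at day 7 (SD, 1.14 ± 0.39, adjusted p = 0.318). Without L replicate 3 of that day 15 members were called higher in L, and calls over all genes were not counted for that fit.

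Whether the effect of a size changed between days was tested with interaction terms added after the data were seen. None of the 84 members was called in any of the 9 tests, which called from 0 to 41 of all 16903 genes. How many of all genes had an unadjusted p under 0.05 was not counted for these tests. For S, day 28 against day 1, 56 members had an unadjusted p under 0.05 with a median difference of 0.56 in log2 fold change, and the lowest adjusted p was 0.137, for Rps7, which was named after its values were seen. For US, day 28 against day 7, 33 members had an unadjusted p under 0.05 (median difference 0.40, lowest adjusted p = 0.0691, for Rps4l).

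The share of ribosomal protein counts moved closely with a property of all other genes, the slope of their level on transcript length. Over 14586 other genes, the change in log2 CPM per doubling of transcript length, relative to each gene's mean, was -0.23, -0.18 and -0.03 in D libraries at day 7, and 0.04, 0.07 and 0.08 in D libraries at day 28. It was 0.15, 0.18 and 0.17 in S and 0.03 in each D library at day 1. Across 36 libraries, which share their total counts between both measures, the share and this slope had r = -0.98 and rho = -0.97, given as a description. Without the 2 libraries farthest from the median slope r was -0.97, and within days 1, 7 and 28 it was -0.94, -0.97 and -0.96 over 12 libraries each. Libraries rich in ribosomal protein counts were thus those in which short transcripts in general were high. With the trends in length and GC content removed, the members' median was -0.18 for D day 28 against day 7, -0.12 for US against D at day 7, -0.08 for S against D at day 1 and 0.11 for L against D at day 28.

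**Figure D5:**
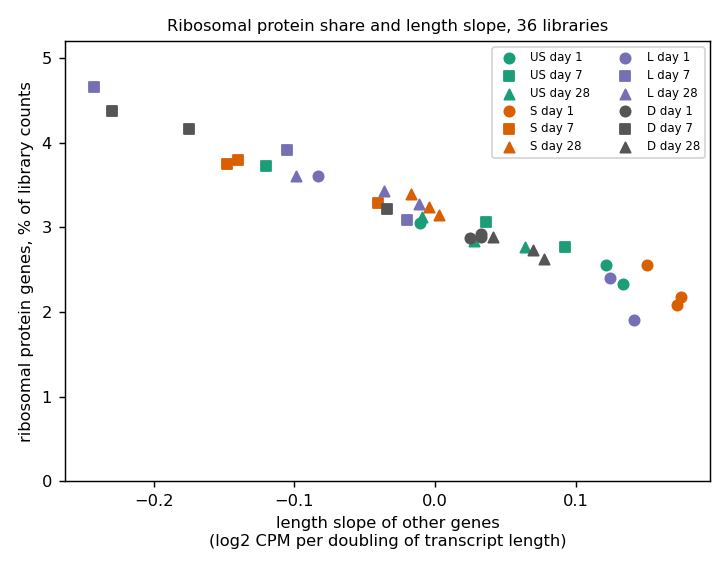
Share of counts from ribosomal protein genes (vertical, %) against the slope of all other genes on transcript length (horizontal, log2 CPM per doubling) in 36 libraries, coloured by material and shaped by day. The points fall along 1 descending line, from 4.66% in L day 7 replicate 1 to 1.91% in L day 1 replicate 2.

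Other gene groups of the same cellular economy were counted in the comparison with most calls, D day 28 against day 7. Of 77 nuclear-encoded genes of oxidative phosphorylation 47 fell and 0 rose (median -0.51), among them Cox4i1 and Cox8a, subunits of cytochrome c oxidase (-0.69 ± 0.18 and -0.60 ± 0.16), and Ndufb6 of complex I (-0.74 ± 0.20). Of 76 mitochondrial ribosomal protein genes 25 fell and 0 rose (median -0.35), among them Mrpl11 (-0.66 ± 0.17) and Mrpl52 (-1.10 ± 0.30). Of 21 other TOP mRNAs 6 fell and 0 rose (median -0.33), among them the initiation factor genes Eif3k (-0.58 ± 0.18) and Eif3f (-0.60 ± 0.19) and the elongation factor gene Eef1b2 (-0.52 ± 0.17). These edgeR counts stand beside the 6.73% of all genes called lower.

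Among genes that act on ribosome production, calls went in both directions, where 15.6% of all genes were called. Of 28 ribosome biogenesis genes 1 rose, Polr1a, the largest subunit of RNA polymerase I (0.50 ± 0.15), and 1 fell, Nhp2, a protein of the particles that modify ribosomal RNA (-0.81 ± 0.22), with a median of 0.01. Of 19 genes of mTORC1 and growth control 5 rose and 2 fell, with a median of 0.12. Mtor averaged 52.5 ± 2.60 CPM at day 28 and 36.9 ± 7.85 CPM at day 7 (SD, 0.51 ± 0.15, adjusted p = 0.0293), and Larp1 averaged 125.3 ± 10.5 CPM at day 28 and 97.2 ± 11.8 CPM at day 7 (0.37 ± 0.11, adjusted p = 0.0315). Akt1s1, which encodes an inhibitor of mTORC1, fell (-0.82 ± 0.25). Of 11 mitochondrially encoded mRNAs 1 rose, mt-Nd5, and 1 fell, mt-Nd6. With GC and length trends removed, the calls were 1 of 77 lower for oxidative phosphorylation, 5 of 76 lower for mitochondrial ribosomal proteins and 0 for other TOP mRNAs, biogenesis and mTORC1. Of the 11 mitochondrially encoded mRNAs, 5 were then called higher and 1 lower. Of all 16835 genes in that fit, 286 were called higher and 231 lower.

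In US against D at day 7, 4 of 77 oxidative phosphorylation genes and 6 of 76 mitochondrial ribosomal protein genes fell and 0 rose, where 1.18% of all genes were called lower. Of 19 mTORC1 genes 1 fell, Akt1s1 (-1.01 ± 0.25), and 0 other TOP mRNAs and biogenesis genes were called. When GC and length trends were removed, the calls were 8 of 77, 6 of 76 and 1 of 19 lower, and 1 of 28 biogenesis genes was called lower. Mrps12 averaged 6.56 ± 1.402 CPM in US lungs and 16.6 ± 5.69 CPM in D lungs (SD, -1.37 ± 0.32, adjusted p = 0.0334), and Uqcrq, of complex III, averaged 14.7 ± 2.95 CPM in US lungs and 39.5 ± 16.1 CPM in D lungs (-1.46 ± 0.39, adjusted p = 0.042).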

How the data were processed

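Whole-number read counts by Ensembl gene ID make up the deposited count table, as its values show, and the authors also deposited TPM per gene and library. The deposited FPKM and coverage signal columns were left aside. Per the submitters' processing notes, the tools included StringTie 1.3.3, featureCounts 1.5.1, STAR 2.5.1b and bcl2fastq 2.19.1.403, with no roles stated, and the builds GRCm38 and GRCh37. Annotation release and strand setting: not given in the sources used here. Libraries were stranded and made from polyadenylated RNA of integrity number 8 or above, per the labels' protocols.

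Counts were filtered with filterByExpr over the 12 groups (16903 genes left), and TMM factors (0.9322 to 1.059) were computed. A single edgeR 4.0.16 model (R 4.3.3) covered the 36 libraries and the 12 groups. Each comparison used the two-sided quasi-likelihood F test with Benjamini-Hochberg adjustment over all genes and a threshold of 0.05. Fold changes are fitted log2 values ± SE, and CPM scales counts to a common library total. Transcript length and GC content came from GENCODE transcripts (available for 99.6% of the tested genes), and start sequences from RefSeq. The script was tested on simulated data.

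The members, lists and comparisons were chosen with earlier results of these data known. Named genes were the called members of smallest p (up to 4 per direction, or the first 2 where none was called), the 5 highest and lowest by TPM, the 3 most and least variable, the P stalk and paralogues, the 5 lowest and highest in count relative to TPM, and up to 3 called genes of each other list. Alternatives were RLE size factors, no filter on low counts (29445 genes), a replicate block, DESeq2 1.42.0, limma 3.58.1 on log2(TPM + 1), where a gene's mean had to reach 1 TPM, offsets for GC content and length, and leaving out each library. Libraries of a group differed beyond sampling noise (chi-square per degree of freedom at least 6.534). Intervals cover counting error only. For DESeq2, the fit with no filter on low counts, the replicate block and the leave-outs, only members were counted. Numbers of members from those fits therefore have no share of all genes beside them.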

Additional observations from a re-analysis of the deposited data

Results flagged for a closer look

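The share of counts from ribosomal protein genes in S lungs relative to D lungs ran in opposite directions at 2 days. At day 1 it was lower in S by a difference of -0.624 percentage points (2.27% ± 0.25 in S and 2.90% ± 0.0231 in D, SD, n = 3 each), with every S library below every D library. At day 28 it was higher in S by 0.512 percentage points, at 3.26% ± 0.128 in S and 2.75% ± 0.127 in D, with every S library above every D library. The difference between the days was not tested on the share itself. Gene by gene, the interaction in the edgeR fit called 0 of 84 members, with 56 at an unadjusted p under 0.05. It called 33 of all 16903 genes, and how many of the 16903 had an unadjusted p under 0.05 was not counted. The slope of other genes on transcript length was 0.15 to 0.18 in S and 0.03 in each D library at day 1, and -0.02 to 0.00 in S and 0.04 to 0.08 in D libraries at day 28, and its part in the difference was not tested.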

How the results depend on the processing

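For D day 28 against day 7, where the count fit called 44 members, GC and length trends removed gave 1 (higher, not lower), DESeq2 70 and limma on log2(TPM + 1) 16, and leaving out 1 library gave 0 to 76. For US against D at day 7, with 1 member called, no filter on low counts gave 5, DESeq2 10, and leaving out 1 library 0 to 21. Calls also appeared in L against D at day 28 (2 with GC and length trends removed, 1 by DESeq2) and S against US at day 1 (1 by DESeq2). Leaving out 1 library gave 0 to 15 in L against US at day 7 and 0 to 49 in D day 7 against day 1. The cause of these differences was not tested. In all other settings and comparisons the count stayed within 1.5 times. Same-numbered libraries did not pair: their deviations correlated at -0.477 to 0.371, and in 0 of 21 comparisons were all pairs above 0.1. The replicate block gave 31 calls for D day 28 against day 7, all among the 44, and 1 for US against D at day 7. Reversed log2 fold changes were all of uncalled genes. With GC and length trends removed these were Rpl7a (0.081) and Rpl3l (0.124) in US against D at day 7, and Rpl4 (0.027), Rpl7a (0.036) and Rpl3l (0.002) in D day 28 against day 7. In limma they were Rpl7l1 (0.049) and Rpl7a (0.023) in US against D at day 7 and Rpl4 (0.041) in D day 28 against day 7. Without 1 library they were Rpl10 in L against D at day 1 (-0.385 to 0.002), Rpl7a, L vs US day 1 (-0.272 to 0.021) and Rpl3l in US against D at day 7 (-0.536 to 0.158). Of the values of named genes outside the leave-outs, 342 kept direction and side of the threshold, 19 passed it only there, 11 no longer passed it and 8 reversed. Rpl24, Rpl3l and the further copies rest on few counts, which limits what this depth can show for them.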
